A study of Homo sapiens with 4 samples.

Results

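Autophagy genes were followed through 4 RNA-seq libraries of a pancreatic ductal adenocarcinoma (PDAC) culture. The 10 genes SQSTM1, MAP1LC3B, GABARAPL1, GABARAPL2, WIPI1, ULK1, BECN1, ATG5, ATG12 and NBR1 were taken by their symbols from a table of 16834 genes, and each was found there. All library titles name MIA PaCa-2, an established human PDAC line, and the labels give a wild-type genotype. The cells were collected after 12 h without drug (control), with neobractatin (NBT) at 1 µM, with trametinib at 5 µM, or with the pair at these doses (combination). NBT is isolated from the plant Garcinia bracteata, and trametinib blocks the kinase MEK of the ERK pathway. Each condition is represented by 1 library, so no value below has a replicate check, differences between libraries include an unmeasured variation between cultures, and no p-value is given. The comparisons ask how each drug changed the RNA of the autophagy machinery and whether the pair did more than either drug alone.

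Autophagy encloses cytoplasm, aggregates or organelles in a membrane that closes into an autophagosome and fuses with the lysosome. The ULK1 kinase starts the process, the lipid kinase complex of BECN1 marks the membrane, WIPI1 reads that mark, and ATG5 joined to ATG12 helps to couple proteins of the ATG8 family (MAP1LC3B, GABARAPL1 and GABARAPL2 among them) to the membrane, where they hold cargo receptors such as SQSTM1 and NBR1. SQSTM1 protein and membrane-bound ATG8 proteins are themselves degraded with the cargo, so RNA levels do not report the rate of autophagy, which was not measured in these data.

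The estimated counts of the libraries summed to between 18776212 and 19614763 reads, and 3 reads, taken as the limit of detection, corresponded to between 0.153 and 0.160 CPM (counts scaled to a common library sum). The treatment labels were checked on DUSP6 and SPRY4, feedback inhibitors transcribed under ERK signalling. They held 329 and 169 reads in the control library and 521 and 295 reads in the NBT library, but 14 reads each in the trametinib library and 9 and 16 reads in the combination library. HMOX1, the heme oxygenase induced by oxidative stress, held 121, 4825, 382 and 44631 reads in the control, NBT, trametinib and combination libraries. Markers of the cell line went against the label in all 4 libraries, for genes that were chosen for this check after their values were seen. CDKN2A and MTAP, neighbouring genes that MIA PaCa-2 is known to have lost, held 2643 to 3524 and 815 to 1151 reads. The epithelial genes CDH1 and EPCAM held 2539 to 4086 and 3113 to 3502 reads and the basal keratin gene KRT5 14518 to 67741 reads, while VIM, a mesenchymal gene known to be abundant in MIA PaCa-2, held 202 to 500 reads. The cell line entries also differ between the libraries (MIA PaCa-2, MIA PaCa-3, MIA PaCa-4 and MIA PaCa-5), although all titles name MIA PaCa-2, so the identity of the cells is given here as labelled. Of 17 markers of acinar, endocrine, leukocyte, fibroblast and endothelial cells, 10 were in the table, and they summed to 80, 65, 223 and 136 reads in the control, NBT, trametinib and combination libraries. Of these markers CPA1, COL1A2, PDGFRB and CDH5 held 0 to 2 reads in each library. CD3E (T cells) held 0, 0, 55 and 29 reads, COL1A1 (fibroblasts) 45, 27, 98 and 53 reads and VWF (endothelium) 3, 4, 25 and 6 reads, and all of them rose past the limits given below with trametinib against control. The leukocyte markers PTPRC and CD14 held 8, 14, 17 and 15 reads and 2, 2, 3 and 2 reads. PECAM1 (endothelium) held 21, 14, 23 and 26 reads. None of PTPRC, CD14 and PECAM1 passed the limits in any comparison. The epithelial keratin KRT8 held 63594, 57181, 38101 and 26811 reads and KRT18 41334, 38414, 14162 and 14049 reads in the same order. The part of such cells in the results was not tested.

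GABARAPL1, MAP1LC3B, SQSTM1, WIPI1 and ULK1 were the genes of the set that rose past the limits used by the study. A gene was counted as past the limits if an exact binomial test of the 2 libraries' reads, Benjamini-Hochberg adjusted over all genes tested, gave at most 0.05 and the log2 ratio was at least 1 in size, and rose or fell is written for such genes only. The test compares 2 libraries, not 2 conditions. In the combination library against control, these 5 of the 10 genes rose and 0 fell, beside 8.42% of the 16229 genes tested that passed in either direction, 4.73% upward and 3.69% downward. With NBT alone 4 of the 10 rose (SQSTM1, MAP1LC3B, GABARAPL1 and WIPI1), beside 2.61% of 15888 genes in either direction, 1.6% upward and 1.01% downward. With trametinib alone 2 of the 10 rose (SQSTM1 and GABARAPL1), beside 5.96% of 16197 genes in either direction, 3.82% upward and 2.15% downward. With an exact negative binomial test that sets the coefficient of variation between cultures to 0.4, the counts were 1 for the combination, 0 for NBT and 0 for trametinib against control, beside 0.314%, 0.0252% and 0.136% of all genes tested. Against control, the 10 genes had median log2 ratios of 0.51 (NBT), 0.52 (trametinib) and 1.00 (combination), where all genes tested had medians of -0.01, 0.08 and 0.05. These 3 comparisons share the control library and are not independent.

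**Figure D1:**
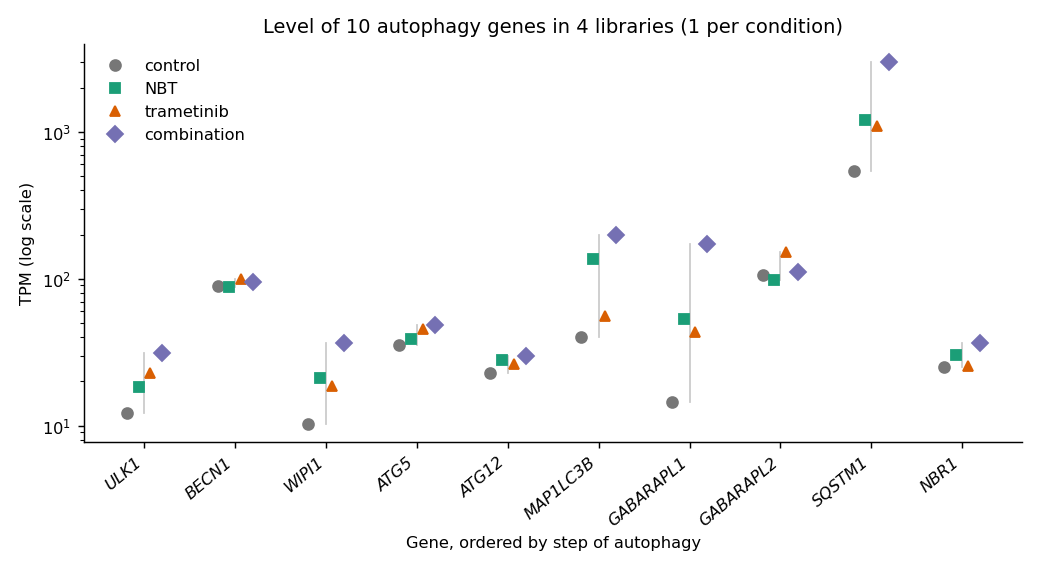
TPM (a level scaled to gene length and to a common library sum, log axis) of the 10 genes in the control, NBT, trametinib and combination libraries, 1 point per library, with a grey line from the lowest to the highest. SQSTM1 lay above the other genes in all 4 libraries, GABARAPL1 spanned the widest range, from 14.5 to 173 TPM, and BECN1 spanned the narrowest.

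**Figure D2:**
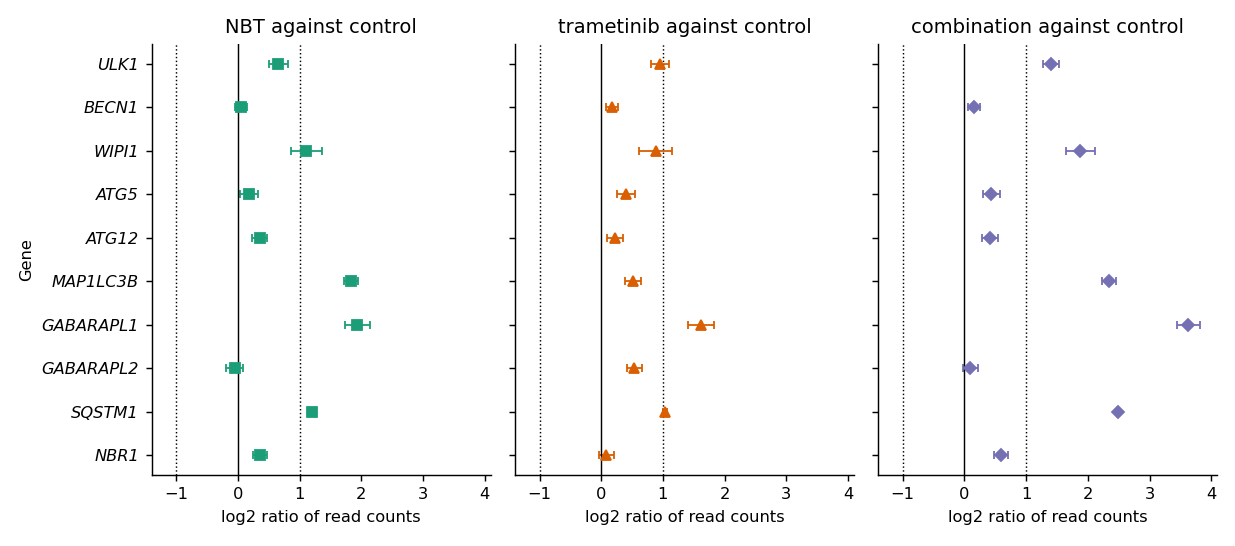
Log2 ratio of read counts against the control library for each gene, with the 95% interval of counting error as bars and dotted lines at the limits of -1 and 1. In the combination panel GABARAPL1, SQSTM1, MAP1LC3B, WIPI1 and ULK1 lie beyond 1, and the other 5 genes lie between 0.10 and 0.59.

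ULK1, the kinase that starts autophagosome formation, held 596 reads in the control library, 971 with NBT, 1162 with trametinib and 1645 with both drugs. All treated libraries lay above the control, and the combination lay highest. The log2 ratio against control was 0.65 with NBT (95% counting interval 0.51 to 0.80) and 0.95 with trametinib (0.81 to 1.09), each short of the limit of 1, and 1.40 with the combination (1.27 to 1.54), a 2.64-fold rise. These intervals describe the error of counting reads alone. PCR copies of a molecule are counted as separate reads, so the intervals can be too narrow even for that error. Of the 4 partner genes of the kinase complex that were listed (ULK2, ATG13, RB1CC1 and ATG101), 0 passed the limits in any of the 5 comparisons, beside 2.61% to 8.42% of all genes tested. Their log2 ratios of combination to control ran from 0.36 to 0.85.

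BECN1, a core subunit of the lipid kinase complex that marks the autophagosomal membrane, differed little between the libraries. It held 1759, 1883, 2003 and 2043 reads in the control, NBT, trametinib and combination libraries. Its log2 ratios against control were 0.05 with NBT (-0.05 to 0.14), which became -0.01 with deposited TPM values, 0.17 with trametinib (0.08 to 0.27) and 0.15 with the combination (0.06 to 0.25). The intervals leave room for changes of at most 0.27 in size from counting error alone. The 6 other genes listed for this complex were all within the limits in the 5 comparisons, where 2.61% to 8.42% of all genes tested passed. Their log2 ratios of combination to control ran from -0.57 to 0.52.

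WIPI1, which binds the lipid mark on the growing membrane, had the fewest reads in the control library of the 10 genes. Its reads numbered 185 in the control library, 413 with NBT, 344 with trametinib and 712 with both drugs. The treated libraries were again all above the control. The log2 ratio was 1.11 with NBT (0.86 to 1.37) and 1.88 with the combination (1.65 to 2.12), while the value with trametinib, 0.88 (0.62 to 1.15), missed the limit. The combination library exceeded the trametinib library by a log2 ratio of 0.9986, just inside the limit, and passed it with 2 other scalings of the libraries.

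ATG5 and ATG12 form the conjugate that helps to attach ATG8 proteins to membranes, and neither passed the limits in any comparison. ATG5 held 718, 839, 956 and 1015 reads and ATG12 884, 1166, 1039 and 1233 reads in the control, NBT, trametinib and combination libraries. Both were lowest in the control and highest in the combination, by log2 ratios of 0.44 (0.30 to 0.58) and 0.42 (0.29 to 0.54). The 8 further conjugation genes, among them the activating enzyme ATG7 and the ATG4 proteases, also had 0 genes past the limits in each comparison, beside 2.61% to 8.42% of all genes tested. Their median log2 ratio of combination to control was 0.03.

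The ATG8 family held the gene of the 10 with the largest log2 ratio, GABARAPL1, and a gene near 0, GABARAPL2. GABARAPL1 was read 252 times in the control library, 999 times with NBT, 778 times with trametinib and 3245 times with the combination, which is 14.5, 53.3, 43.3 and 173 TPM. Each drug alone raised it, and the combination lay highest. Its log2 ratio against control was 1.93 with NBT (1.74 to 2.14), 1.61 with trametinib (1.41 to 1.82) and 3.62 with the combination (3.44 to 3.81), a 12.3-fold rise. By log2 ratio of combination to control GABARAPL1 stood at rank 128 of 16229 genes from the top, and by TPM it moved from rank 7347 among all genes in the control library to rank 860 in the combination library. Of its 2 transcripts in the table, 1 held 95.6 to 98.1% of the gene's TPM in each library, as estimated by the authors.

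MAP1LC3B, the member of the LC3 branch most used as a marker of autophagosomes, held 810 reads in the control library, 2978 with NBT, 1165 with trametinib and 4286 with both drugs. The libraries with NBT were high and the libraries without it were low. NBT raised the gene 3.55-fold against control (log2 ratio 1.83, 1.72 to 1.94), and the combination raised it by a log2 ratio of 1.83 against trametinib (1.74 to 1.92), a comparison that shares no library with the first. With trametinib the log2 ratio was 0.51 against control (0.38 to 0.64) and 0.51 when added to NBT (0.44 to 0.58), both under the limit. MAP1LC3B2, a nearly identical copy of MAP1LC3B whose reads can be divided between the genes only by estimate, held 21, 41, 14 and 70 reads in the control, NBT, trametinib and combination libraries. The other LC3 genes, MAP1LC3A and MAP1LC3C, held 1 to 6 and 2 to 10 reads over the libraries, at or near the limit of detection.

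GABARAPL2, of the same branch as GABARAPL1, did not pass the limits in any comparison. It held 945 reads in the control library, 941 with NBT, 1383 with trametinib and 1056 with both drugs. Only the trametinib library stood above the rest. Its log2 ratio was -0.06 with NBT (-0.19 to 0.08), 0.54 with trametinib (0.42 to 0.66) and 0.10 with the combination (-0.03 to 0.23). GABARAP, the closest relative of GABARAPL1 in the branch and the most abundant gene of the family by TPM in all 4 libraries, held 3249, 3411, 5284 and 4692 reads. It too was highest with trametinib and had no log2 ratio past the limits. Unlike GABARAPL2, it also stood above control with the combination, at 0.47 (0.40 to 0.53).

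Summed over its 7 genes, the ATG8 family stood at 429 TPM in the control library, 549 with NBT, 673 with trametinib and 847 with both drugs. MAP1LC3B and GABARAPL1 together made up 12.7% of that sum in the control library and 14.8% with trametinib, but 34.4% with NBT and 43.7% with the combination. GABARAP and GABARAPL2 made up 86.5% in the control library and 55.2% in the combination library. The family was therefore larger in every treated library, and its composition differed most where NBT was present.

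**Figure D3:**
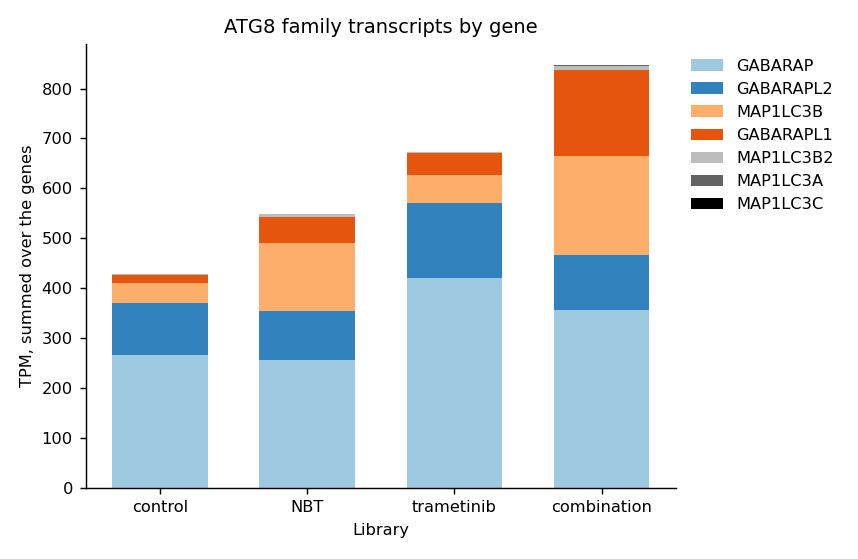
TPM of the 7 ATG8 family genes, stacked by gene, in each of the 4 libraries. The sum goes from 429 TPM in the control bar to 847 TPM in the combination bar, and the orange shades for MAP1LC3B and GABARAPL1 take 12.7% of the first and 43.7% of the second.

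SQSTM1, the receptor that binds ubiquitinated cargo and ATG8 proteins, was the most abundant of the 10 genes by TPM in all libraries. It held 14676 reads in the control library, 34880 with NBT, 30287 with trametinib and 86086 with both drugs. The drugs alone gave similar levels and the combination far more. The log2 ratio against control was 1.20 with NBT (1.17 to 1.23), 1.03 with trametinib (1.00 to 1.06) and 2.49 with the combination (2.46 to 2.51), a 5.61-fold rise. The value with trametinib depended on the scaling, since it was 0.96 with TMM factors and 0.97 with median-of-ratios factors, under the limit. SQSTM1 took 0.0782% of all reads in the control library and 0.439% in the combination library, and went from rank 231 to rank 35 of all genes by TPM. Of its 3 transcripts 1 held 97.0 to 99.3% of the gene's TPM.

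NBR1, a receptor with a domain plan like that of SQSTM1, did not pass the limits in any comparison. It held 1099 reads in the control library, 1464 with NBT, 1175 with trametinib and 1728 with both drugs. The libraries with NBT lay above those without. Its log2 ratio was 0.36 with NBT (0.25 to 0.48), 0.08 with trametinib (-0.04 to 0.20) and 0.59 with the combination (0.48 to 0.70), all under the limit.

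SQSTM1, MAP1LC3B, WIPI1, BECN1 and ATG12 each share exon sequence with a gene on the opposite strand in GENCODE v29, and GABARAPL1 and NBR1 with a noncoding gene there whose reads were not analysed here. Whether the counting used strand is not given in the sources used here. The partner MGAT4B of SQSTM1 held 3990, 3294, 5000 and 3717 reads, FBXO31 of MAP1LC3B 634, 651, 532 and 688 reads, and ARSG of WIPI1 94.7, 155, 122 and 185 reads in the control, NBT, trametinib and combination libraries. MGAT4B was highest with trametinib alone, unlike SQSTM1. FBXO31 and ARSG were highest in the combination library, as MAP1LC3B and WIPI1 were, though over a narrower range. In the same order, AP3S1 of ATG12 held 1279, 1463, 1542 and 1621 reads and PSME3 of BECN1 6668, 6679, 5280 and 5774 reads. Both held more reads than ATG12 and BECN1 in every library. AP3S1 was lowest in the control and highest in the combination, as ATG12 was. PSME3 was lowest with trametinib, unlike BECN1. Their part in the values of these genes was not tested.

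The second drug was then compared on top of the first. When trametinib was added to NBT, SQSTM1 rose by a log2 ratio of 1.29 (1.27 to 1.31) and GABARAPL1 by 1.69 (1.58 to 1.79), which put 2 of the 10 genes past the limits beside 4.36% of 16250 genes tested, 2.38% upward and 1.99% downward. WIPI1 at 0.77 (0.60 to 0.95) and ULK1 at 0.75 (0.63 to 0.86) came next, under the limit. When NBT was added to trametinib, GABARAPL1 rose by 2.01 (1.90 to 2.13), MAP1LC3B by 1.83 and SQSTM1 by 1.46 (1.44 to 1.48), which made 3 of the 10 beside 6.11% of 16343 genes tested, 2.56% upward and 3.55% downward. ULK1 stood at 0.45 (0.34 to 0.56) in this comparison and GABARAPL2 at -0.44 (-0.56 to -0.32). The medians of the 10 genes were 0.39 for trametinib added and 0.48 for NBT added, against 0.03 and -0.05 over all genes tested. Each drug's value with the other present came from libraries that did not enter its value alone. For each gene, however, the difference between these 2 values is by construction the same for both drugs. It equals the departure from additivity given below, so the 2 drugs are not separate checks of it.

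**Figure D4:**
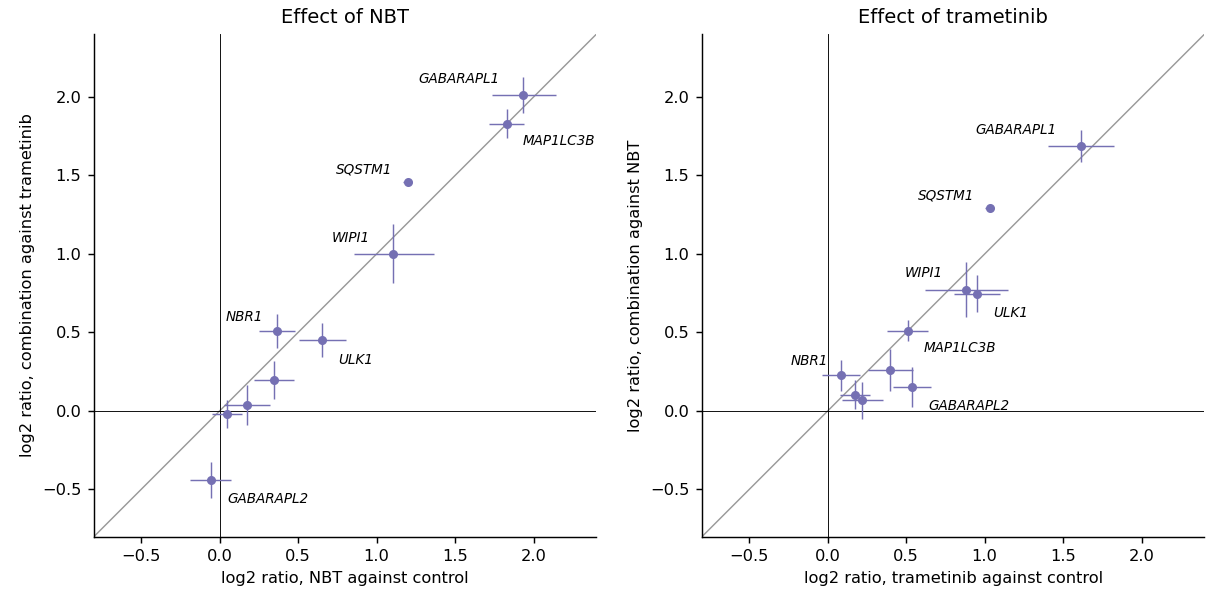
Log2 ratio of read counts for each drug alone (x axis) and for the same drug added to the other (y axis), 1 point per gene, with 95% intervals of counting error as bars and a grey line where both are equal. The left panel shows NBT and the right panel trametinib. MAP1LC3B lies on the line in both panels, SQSTM1 lies above it by 0.26 and GABARAPL2 below it by 0.38. The height of a gene above or below the line is the same in both panels by construction.

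Additivity was read as the log2 ratio of the combination minus the sum of the log2 ratios of the drugs alone, with a departure counted at 1 or more in size. Of the 10 genes 0 departed, beside 2.33% of the 11367 genes with at least 50 reads in at least 1 library, 0.897% upward and 1.43% downward. The value was 0.00 for MAP1LC3B (-0.14 to 0.15), 0.07 for GABARAPL1 (-0.15 to 0.30), -0.11 for WIPI1 (-0.42 to 0.20), -0.20 for ULK1 (-0.38 to -0.02) and 0.26 for SQSTM1 (0.22 to 0.29). The large ratios of the combination were thus near the product of those of the drugs alone. GABARAPL2 had the lowest value, -0.38 (-0.56 to -0.21).

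The windows around the annotated RefSeq starts (GRCh38.p14) of the 10 genes, from 250 bases before the start to 50 after it, were searched on both strands for 5 motifs of stress and autophagy factors. The letters were CACGTG (the core bound by TFEB and TFE3), TGACNNNGC (the core of the antioxidant response element bound by NRF2), TGATGNAA (bound by ATF4 with C/EBP partners), TGACGTCA (the cyclic AMP response element) and TGTTTAC (a FOXO site). They occurred in 7.26%, 13.3%, 3.62%, 1.85% and 3.42% of all 35116 RefSeq windows. In the 14 windows of the 10 genes, TGACGTCA matched 1 window, TGACNNNGC matched 1 window and the other motifs matched 0. SQSTM1 and WIPI1, which rose with NBT and with the combination as GABARAPL1 and MAP1LC3B did, had 0 matches in these windows. Sequence outside the windows was not searched, so 0 matches does not show that a gene lacks a site. For the main transcript of SQSTM1, GENCODE v29 places the start 146 bases from the nearest of these RefSeq starts. The 2 matches were in GABARAPL1 and MAP1LC3B. They are shown 5′ to 3′ on the plus strand with the match in capitals, at chr12:10212836-10212865 for GABARAPL1 and chr16:87392280-87392309 for MAP1LC3B.
GABARAPL1: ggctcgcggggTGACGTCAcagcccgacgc
MAP1LC3B: gcgagtcaccTGACCAGGCtgcgggctgag
The capitals in GABARAPL1 are TGACGTCA, 30 to 23 bases before the RefSeq start, and those in MAP1LC3B are TGACCAGGC, 46 to 38 bases before it, a match to TGACNNNGC. GENCODE v29 places the starts further upstream, by 72 bases for GABARAPL1 and 536 bases for MAP1LC3B, so that the matches begin 42 and 490 bases after those starts. Which start the cells used was not measured. A match is a description of these letters and not evidence of binding.

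Beyond the 10 genes, 65 further autophagy genes were grouped by role. With NBT against control 0 passed the limits, by the exact binomial test, beside 2.61% of all genes tested. With trametinib 3 rose and 0 fell, beside 5.96%, and with the combination 7 rose and 1 fell, beside 8.42%. The list medians of the log2 ratio were 0.11, 0.22 and 0.30 in these comparisons. When trametinib was added to NBT, 2 rose (OPTN and RETREG1) and 1 fell (BNIP3L), beside 4.36% of all genes tested. When NBT was added to trametinib, 4 rose (WDR45, MAP1LC3B2, CCPG1 and TFE3) and 4 fell (BNIP3, TFEB, DEPP1 and TP53INP1), beside 6.11%. All 13 genes that passed in at least 1 of the 5 comparisons are named in what follows. With the combination against control, 3 of the 9 genes listed for membrane growth rose, beside 4.73% of all genes tested upward. Among them WDR45, a relative of WIPI1, held 1002, 1961, 1091 and 2639 reads in the control, NBT, trametinib and combination libraries. It was high in the libraries with NBT. The combination raised it by a log2 ratio of 1.33 (1.23 to 1.44). ZFYVE1, which binds the same lipid as WIPI1, held 370, 512, 711 and 919 reads, with a log2 ratio of 1.25 (1.07 to 1.43) for the combination, and TMEM41B, a lipid scramblase, held 423, 593, 552 and 919 reads, with a ratio of 1.06 (0.89 to 1.23).

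Cargo receptors went in both directions. With the combination against control, 3 of the 12 listed rose and 1 fell, beside 4.73% and 3.69% of all genes tested. Their median log2 ratio was 0.25. OPTN, a receptor for ubiquitinated mitochondria and bacteria, held 658, 748, 1582 and 1776 reads and was high in the libraries with trametinib, with log2 ratios against control of 1.25 for trametinib (1.12 to 1.39) and 1.37 for the combination. RETREG1, a receptor for the endoplasmic reticulum, held 36, 54, 130 and 198 reads in the same order of libraries and rose by 1.82 with trametinib (1.30 to 2.41) and 2.38 with the combination (1.88 to 2.95). CCPG1, another receptor for the endoplasmic reticulum, held 525, 847, 410 and 1159 reads and was high where NBT was present, with a ratio of 1.08 for the combination (0.93 to 1.23). The mitochondrial receptor BNIP3L held 1819, 1746, 1049 and 686 reads, so it was lower in the libraries with trametinib and lowest with the combination, where it fell by 1.47 on the log2 scale against control (-1.60 to -1.34). Its relative BNIP3 held 131, 98, 161 and 79 reads and was past the limits only in the combination library against the trametinib library, at -1.07 (-1.48 to -0.68).

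Of the 9 regulators of the pathway listed, 1 rose with trametinib against control, beside 5.96% of all genes tested. In the combination against trametinib 1 rose and 3 fell, beside 6.11%. TFE3, a transcription factor of lysosomal and autophagy genes, held 1741, 2751, 1384 and 3301 reads, and the combination exceeded trametinib by a log2 ratio of 1.20 (1.11 to 1.30). Its relative TFEB held 56, 53, 111 and 52 reads, with a ratio of -1.14 in that comparison (-1.65 to -0.66). With trametinib against control TFEB stood at 0.97 (0.50 to 1.46), under the limit. DEPP1, a FOXO target linked to autophagy, held 11, 9, 82 and 14 reads, and TP53INP1, which binds ATG8 proteins, 11, 6, 25 and 5 reads, and both were highest with trametinib alone. They fell by 2.56 (-3.53 to -1.77) and 2.26 (-4.11 to -0.96) on the log2 scale from trametinib to the combination, on few reads. With trametinib against control DEPP1 rose by 2.83 (1.97 to 3.94), while TP53INP1 did not pass the limits. MAP1LC3B2, described above, rose by 1.65 with the combination against control (0.95 to 2.45). Of the genes for conjugation, the lipid kinase complex, the ULK1 complex and fusion with the lysosome (8, 6, 4 and 13 genes), 0 passed the limits in any of the 5 comparisons. Over all genes tested, 2.61% to 8.42% passed, so 0 in groups this small does not set them apart from other genes. PLEKHM1 (fusion) at 0.991 and ATG4A (conjugation) at 0.985 came just under the limit for the combination against control.

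The genes most like SQSTM1 and GABARAPL1 over the 3 log2 ratios against control were looked up among 10661 genes with at least 100 reads in at least 1 library, by Euclidean distance. Nearest to SQSTM1 were SLC30A1 at a distance of 0.219, GADD45A at 0.332, FTH1 at 0.355, FTL at 0.366 and CREB5 at 0.412. SLC30A1 exports zinc, GADD45A is a growth arrest gene, FTH1 and FTL encode the ferritin chains and CREB5 is a transcription factor. FTH1 held 22786, 62854, 38760 and 138087 reads and FTL 6983, 15244, 12998 and 50832 reads in the control, NBT, trametinib and combination libraries, and both have near-identical pseudogene copies, so their counts are uncertain. Nearest to GABARAPL1, the gene of the set with the widest range, were KIAA0319 at 0.621, LOC112267992 at 0.651, NDUFA4L2 at 0.774, DDIT3 at 0.866 and ITPKC at 0.900. DDIT3, a transcription factor of the stress response of the endoplasmic reticulum, held 196, 1298, 443 and 2589 reads. The distances rest on 3 log2 ratios from 4 libraries, and these ratios all share the control library.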

How the data were processed

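RNA was sequenced on the BGISEQ-500 platform from 4 libraries, and the labels' protocol describes removal of bacterial ribosomal RNA. The authors deposited, per gene and per transcript, an estimated count from their read assignment without normalization. Their deposited TPM and FPKM values are scaled to length and library size. The submitters' processing notes name Bowtie2 2.2.5, RSEM 1.2.8 and hg38, and the paper PossionDis with a false discovery rate of at most 0.05 and a log2 limit of 1. The counts are not whole for 53.9% of genes in some library, since RSEM divides reads among transcripts and genes. With 1 library per condition in the authors' design, a quasi-likelihood fit of the 4 conditions has no residual degrees of freedom, and a fit with additive drug effects, whose residual is the departure from additivity, was not run.

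Libraries were assigned by title and treatment. Each estimated count was rounded, and library sums set the scale. Log2 ratios had 0.5 reads added. Genes with at least 1 read in either library were tested with an exact two-sided binomial test (Benjamini-Hochberg), and the ratio of 2 counts was given a Clopper-Pearson interval at 95%. The steps were tested on simulated data with 200 changed genes. Alternatives were edgeR's TMM factors, DESeq2's median-of-ratios factors, deposited TPM and FPKM values with a pseudocount of 0.1, 5 added reads, transcript counts summed per gene, minimums of 10 and 50 reads, an exact negative binomial test in edgeR with the variation between cultures set to 0.2 or 0.4 (coefficient of variation), and 1.5-fold and 4-fold limits. All 10 genes were named, together with every gene of the 65-gene list past the limits in at least 1 comparison, the 5 genes nearest to SQSTM1 and to the gene of widest range, and DUSP6, SPRY4 and HMOX1 as checks. The members, lists and tests were chosen with earlier results of these data known. Sequences at start sites come from RefSeq (GRCh38.p14). The authors' own comparisons were not used. Python 3.11.15, numpy 2.4.6, pandas 2.3.3, scipy 1.17.1, matplotlib 3.10.9, R 4.3.3, edgeR 4.0.16 and DESeq2 1.42.0 were used.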

Additional observations from a re-analysis of the deposited data

Results flagged for a closer look

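For 4 genes of the wider autophagy list, a drug's log2 ratio had opposite signs without and with the other drug, with both counting intervals clear of 0. These differences were not tested, since each condition has 1 library. Trametinib gave CCPG1 a log2 ratio of -0.37 alone and 0.44 on top of NBT, a difference of 0.809, and it gave TFE3 -0.34 and 0.25, a difference of 0.594. It gave ATG101, a subunit of the ULK1 kinase complex, -0.17 and 0.15, a difference of 0.319. NBT gave VAMP8, a protein of autophagosome fusion, 0.13 alone and -0.37 on top of trametinib, a difference of -0.499. None of the 10 genes described first had such opposite signs with both intervals clear of 0.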

How the results depend on the processing

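Under other scalings, units, added reads and the transcript table, 300 log2 ratios of the 10 genes were recomputed, of which 289 stayed within the counting interval, and the largest shift was 0.096. The 3 that changed sign were values of BECN1 near 0: the combination against trametinib went from -0.02 to 0.03 with TMM and 0.01 with median-of-ratios factors, and NBT against control from 0.05 to -0.01 with deposited TPM values. Of 60 departures from additivity 57 stayed within their interval. All departures and all 11 log2 ratios that left their interval were of SQSTM1. Its departure of 0.26 (0.22 to 0.29) became 0.30 with TMM factors, 0.30 with median-of-ratios factors and 0.31 with deposited TPM values. With TMM or median-of-ratios factors 1 of the 10 genes in place of 2 passed with trametinib against control, since SQSTM1 came just under the limit, beside 5.82% of all genes tested. With the variation between cultures set to 0.2, 2 genes passed with NBT against control, 1 with trametinib against control and 1 for the combination against NBT, beside 0.434%, 2.25% and 1.26% of all genes. At 0.4 the counts were 0 with NBT, 0 with trametinib, 1 with the combination against control, 0 for the combination against NBT and 0 against trametinib, beside 0.0252%, 0.136%, 0.314%, 0.08% and 0.0857%. A 1.5-fold limit gave 4 with trametinib against control and 4 for the combination against NBT, beside 12.2% and 9.21%. A 4-fold limit gave 0 with NBT, 0 with trametinib, 3 with the combination against control, 0 for the combination against NBT and 1 against trametinib, beside 0.73%, 2.17%, 2.47%, 1.54% and 1.54%. A stricter limit or a larger assumed variation leaves fewer genes by construction. No replicate could be left out. No paired analysis was possible because each condition has 1 library. Variation between cultures, and not sequencing depth, is what these libraries leave unmeasured for the 10 genes, the lowest of which held 185 reads.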
